A study of Rattus norvegicus with 2 samples.

Results

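The enzymes that turn cholesterol into conjugated bile acids were described on 2 rat liver arrays, 1 from a high-fat diet and 1 from a low-fat diet. The 8 genes were chosen by name from the known pathway, as all probe sets that carry 1 of these gene symbols alone in the platform annotation: Cyp7a1, Hsd3b7, Cyp8b1, Akr1d1, Cyp27a1, Cyp7b1, Slc27a5 and Baat. Each had 1 probe set, so they were 8 of the 10411 genes with a single symbol. The high-fat array held total liver RNA labelled as from an SD rat given an AIN93G-based high-fat food, and the low-fat array the same from a rat given an AIN93G-based low-fat food. AIN93G is a standard purified rodent diet. Both samples were labelled with an age of 4 weeks and a feeding time of 9 weeks. Neither the sex, the fat content, the hour and feeding state at collection nor how many animals gave each RNA is stated in the labels used here.

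Bile acids are the main route by which the body disposes of cholesterol, and their synthesis is a function of hepatocytes. The classic route starts with hydroxylation of cholesterol by Cyp7a1, and the acidic route with oxidation of the side chain by Cyp27a1. Cyp8b1 decides how much of the product becomes cholic acid, and the last steps attach taurine or glycine before secretion into bile. Bile acids themselves are sensed by the nuclear receptor Nr1h4 (FXR), which lowers Cyp7a1 and Cyp8b1 expression through the repressor Nr0b2 (SHP).

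Each diet had a single array and hence no replicate, so no difference below has a p-value, and each describes these 2 arrays and not the diets. Of 7864 probe sets measured above the floor, the uncentred log2 ratio of the high-fat to the low-fat signal had a median of -0.12, and ratios below are relative to it unless said otherwise. The floor was the median signal of each array, 14.0 on the high-fat array and 15.7 on the low-fat array. The beta-actin control probe sets, read as 3′ over 5′ signal, gave 2.85 on the high-fat array and 2.69 on the low-fat array. Those of Gapdh gave 1.67 on the high-fat array and 1.58 on the low-fat array. For want of replicates, 2 yardsticks stood in for error. The first was the robust SD of the ratio among probe sets of similar signal, 0.228 in the ninth and 0.171 in the brightest of 10 equal bins. The median ratio was 0.004 in the ninth bin and 0.049 in the brightest, while multiples of the SD below are counted from 0. The second was the difference between both probe sets of a gene on the same arrays, which had an SD of 0.218 over 138 genes with a mean signal of at least 100 on both. Neither covers the spread between animals.

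The bile acid synthesis enzymes were unequal on the high-fat array. Cyp8b1 was the highest of the 7 measured members, Akr1d1, Slc27a5 and Baat were moderately higher, Cyp7a1 and Hsd3b7 were close to the median of all probe sets, and Cyp27a1 was lower. Cyp7b1 was below the floor on both arrays. No member passed 2-fold in either direction, against a background, over 6012 measured genes, of 0.848% past 2-fold on the higher side and 0.865% on the lower side. Of the 7 measured members 6 had a ratio above 0 (5 when centred on hepatocyte markers, where Cyp7a1 turned), beside 3004 of all 6012 measured genes. Among the 1888 measured genes with a mean signal of at least 100, which include all 7, 55.2% had a ratio above 0, and among 14 measured hepatocyte markers 13 did. The median over the 7 was 0.27, beside 0.02 for those bright genes and 0.14 for the hepatocyte markers.

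**Figure D1:**
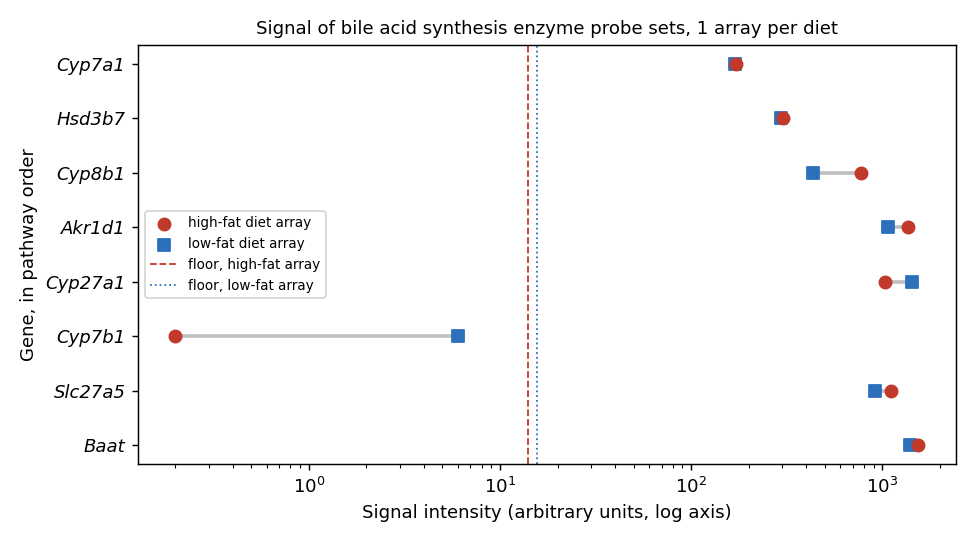
Signal intensity (log axis, arbitrary units) of the single probe set of each of the 8 bile acid synthesis enzymes, in pathway order, on the high-fat array (circles) and the low-fat array (squares), with vertical lines at each array's floor. The Cyp8b1 points, 773.8 and 435.2, are farther apart than those of any other measured member, Cyp27a1 is the measured member with the high-fat point on the left, and both Cyp7b1 points lie below the floors.

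In the classic route, Cyp7a1, the rate-limiting cholesterol hydroxylase (probe set 1368458_at), had a signal of 171.9 on the high-fat array and 169.8 on the low-fat array. The arrays were thus near equal for this gene, and its centred log2 ratio of 0.13 was smaller than the robust SD of its bin. Hsd3b7, the steroid dehydrogenase that follows and oxidises the ring hydroxyl group (1370433_at), had a signal of 301.0 on the high-fat array and 296.0 on the low-fat array. Its ratio of 0.14 was also within the spread of probe sets of like signal. The reference gene table lists Cca2 as an older symbol of Hsd3b7. The ratios of these consecutive enzymes differed from each other by 0.0064 on the log2 scale, a difference that no scaling by a single factor can change. This is well below the SD of 0.218 between probe sets of a single gene. Under quantile normalization the ratios were 0.13 for Cyp7a1 and 0.11 for Hsd3b7.

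Cyp8b1, the sterol hydroxylase of the cholic acid branch (1368435_at), had a signal of 773.8 on the high-fat array and 435.2 on the low-fat array. The centred fold was 1.93 and the uncentred fold 1.78. Its log2 ratio of 0.95 was 5.55 times the robust SD of its bin, and 7 of the other 786 probe sets in that bin had a higher ratio. Over all 6012 measured genes, 1.06% had a higher ratio, and among the 1888 bright genes 14 did. Akr1d1, the reductase that gives the steroid nucleus its bent A/B ring junction (1398310_at), had a signal of 1363.1 on the high-fat array and 1069.2 on the low-fat array. Its log2 ratio was 0.47, and 3.87% of bright genes had a higher one. Akr1d1 acts on the intermediates of both branches, with and without the hydroxyl group that Cyp8b1 adds. The ratio of Cyp8b1 exceeded that of Akr1d1 by 0.48, that of Cyp7a1 by 0.81 and that of Hsd3b7 by 0.81.

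The RefSeq promoter table (GRCr8) was matched by symbol and held 5 of the 8 members, Hsd3b7, Cyp8b1, Cyp27a1, Slc27a5 and Baat. Cyp7a1, Akr1d1 and Cyp7b1 were not matched. In the rat, the Cyp8b1 promoter is known to be activated by Nr5a2 (LRH-1, also called FTF) and by Hnf4a. The 250 bases before the annotated start are shown for the members with the highest and the lowest ratio, Cyp8b1 (GRCr8 chr8:130457593-130457842, minus strand) and Cyp27a1 (GRCr8 chr9:83713282-83713531, plus strand), 5′ to 3′ along the gene. Capitals mark matches on either strand to CAAGGTC, a core of the kind Nr5a2 binds, or to a direct repeat of the kind Hnf4a binds, AGGNCN and AGGNCA in the same orientation with 1 base between them. Both motifs were chosen after the sequences had been seen.
Cyp8b1: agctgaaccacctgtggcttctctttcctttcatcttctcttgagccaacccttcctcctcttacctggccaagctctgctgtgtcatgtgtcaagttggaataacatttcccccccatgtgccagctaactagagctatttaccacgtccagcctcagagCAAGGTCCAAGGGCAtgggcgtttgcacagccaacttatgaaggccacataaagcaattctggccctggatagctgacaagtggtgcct
Cyp27a1: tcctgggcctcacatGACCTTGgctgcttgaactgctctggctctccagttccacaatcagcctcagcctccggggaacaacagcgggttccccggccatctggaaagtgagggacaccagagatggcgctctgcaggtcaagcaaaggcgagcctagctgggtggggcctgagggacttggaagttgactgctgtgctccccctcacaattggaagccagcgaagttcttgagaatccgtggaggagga
In Cyp8b1 the match to CAAGGTC lay 89 to 83 bases before the start and overlapped the direct repeat, AGGTCCAAGGGCA, 87 to 75 bases before it. In Cyp27a1 CAAGGTC was matched on the opposite strand, 235 to 229 bases before the start, and the repeat had no match in this window. The upstream windows of Hsd3b7, Slc27a5 and Baat held neither string of letters. Of 33469 windows of the same length in the table, 3.61% held CAAGGTC and 0.669% held the repeat. These matches are a description of letters, and binding was not measured.

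In the acidic route, Cyp27a1, the mitochondrial sterol 27-hydroxylase (1387914_at), had a signal of 1039.4 on the high-fat array and 1432.4 on the low-fat array. It was the member with a ratio below 0, at -0.35, and 1.27-fold lower on the high-fat array. Among bright genes 6.30% had a lower ratio, and among all 6012 measured genes 13.7% did. The ratio was -2.03 times the robust SD of its bin. The enzyme also serves the classic route, where it starts the oxidation of the side chain. Cyp7b1, the oxysterol hydroxylase of the acidic route (1388188_at), had a signal of 0.2 on the high-fat array and 6.0 on the low-fat array. Both signals were below the floor of their array, so no fold is given and Cyp7b1 is left out of the counts and the median. The ratio of Cyp27a1 was below that of Cyp8b1 by 1.29, a 2.45-fold gap, and below that of Cyp7a1 by 0.48.

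At the conjugation step, Slc27a5, the bile acyl-CoA synthetase that activates bile acids (1387325_at), had a signal of 1104.3 on the high-fat array and 913.8 on the low-fat array. Baat, the transferase that then joins the activated bile acid to taurine or glycine (1387508_at), had a signal of 1544.3 on the high-fat array and 1388.8 on the low-fat array. The log2 ratios of this enzyme pair were 0.39 and 0.27. They differed by 0.12, less than the SD of 0.218 between probe sets of a single gene. Among bright genes 6.04% had a ratio above that of Slc27a5 and 12.3% above that of Baat. The ratios were 2.29 times the robust SD of their bin for Slc27a5 and 1.58 times for Baat.

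**Figure D2:**
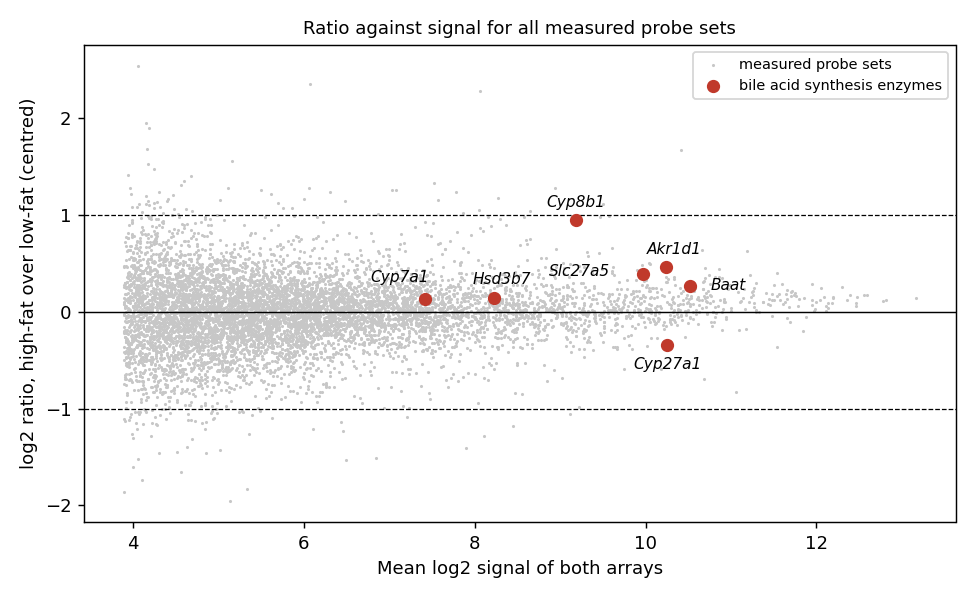
Centred log2 ratio of the high-fat to the low-fat signal against mean log2 signal, with 1 grey point for each of 7864 measured probe sets and the 7 measured bile acid synthesis enzymes in red, and dashed lines at 2-fold. Cyp8b1, at 0.95, lies near the upper edge of the probe sets of like signal and inside the 2-fold line, and Cyp27a1, at -0.35, lies below 0.

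Set against each other, the 7 ratios gave 21 pairs, and these differences do not depend on a single scaling factor between the arrays. Over the 138 genes with a second bright probe set, 95% of the differences between both probe sets were at most 0.448. Of the 21 pairs 11 differed by more than that, and all 11 involved Cyp8b1 or Cyp27a1, which differed so from all 6 others. These genes are by choice the highest and the lowest of the 7. The yardstick is for probe sets of the same gene. The share of pairs of different bright genes past it was not counted, so the count has no background. The other 5 members spanned 0.33, from 0.13 for Cyp7a1 to 0.47 for Akr1d1, and none of their pairs differed by more than 0.448. Each member rests on a single probe set, so no ratio could be checked on a second one.

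Scalings by a single factor move all members by the same amount, while quantile normalization and loess moved them unequally. These brought Baat from 0.27 to 0.17 and 0.20 respectively, whereas Cyp7a1 stayed at 0.13 under both. Under 6 scalings the ratio of Cyp8b1 ran from 0.81 to 0.95, that of Akr1d1 from 0.33 to 0.47, that of Slc27a5 from 0.25 to 0.39, that of Baat from 0.13 to 0.27 and that of Cyp27a1 from -0.48 to -0.35. Cyp8b1 had the highest and Cyp27a1 the lowest ratio of the 7 under all 6. Only quantile normalization and loess could have changed this order, since the other scalings shift every ratio equally. The ratio of Hsd3b7 ran from 0.0041 to 0.14. That of Cyp7a1 had its lowest value, -0.0024, when ratios were centred on hepatocyte markers, where its sign turned. The median over all 7 was 0.15 without centring.

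**Figure D3:**
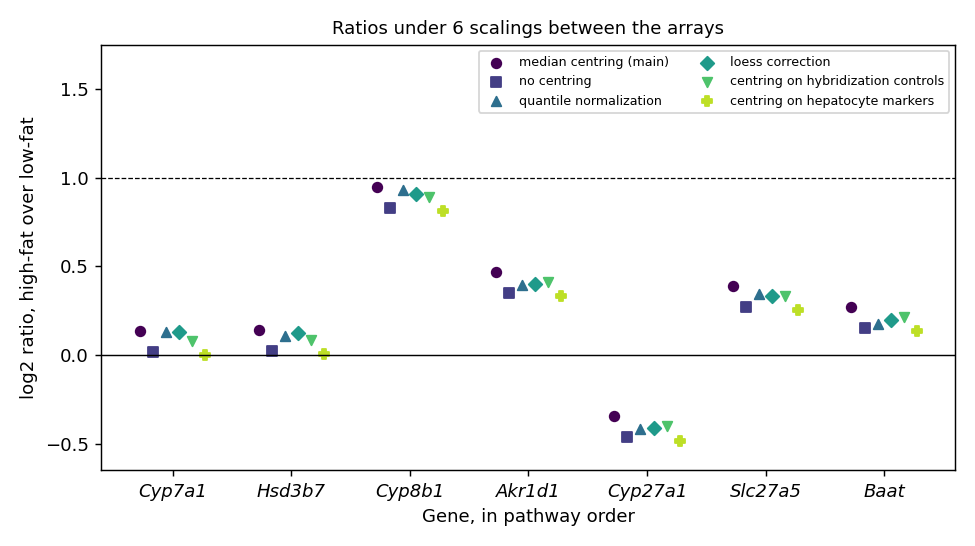
Log2 ratio, high-fat to low-fat array, for the 7 measured enzymes in pathway order, with 1 symbol for each of 6 scalings between the arrays, a solid line at 0 and a dashed line at 2-fold. Cyp8b1 lies between 0.81 and 0.95 and Cyp27a1 between -0.48 and -0.35, while the lowest values of Cyp7a1 and Hsd3b7 are -0.0024 and 0.0041.

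Other enzymes of the pathway were read from gene lists, and none of those in the ring and side-chain lists passed 2-fold. Akr1c14, the rat hydroxysteroid dehydrogenase that follows Akr1d1, had signals of 675.0 on the high-fat array and 787.1 on the low-fat array, and its log2 ratio was -0.10, with -0.21 on a dimmer probe set. Of 7 measured genes for side-chain shortening in peroxisomes, 4 were higher and 3 lower, and 3 were higher and 4 lower under the other 5 scalings. The median was 0.02. Acox2, the branched-chain acyl-CoA oxidase that acts on bile acid intermediates, was the highest at 0.49, with a signal of 325.7 on the high-fat array and 251.7 on the low-fat array. Amacr, the racemase of this step, was at 0.22, and the bifunctional enzyme gene Hsd17b4 at 0.02, a sign that turned with the scaling. Scp2, which encodes the thiolase and the sterol carrier protein, was at 0.16, with a further probe set at 0.33. Acot8, a peroxisomal thioesterase gene, was at -0.15.

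The genes of taurine supply also had ratios above 0, as did 13 of 14 measured hepatocyte markers. Csad, which makes the taurine precursor hypotaurine, had a signal of 263.2 on the high-fat array and 199.6 on the low-fat array and a log2 ratio of 0.52. Cdo1, the cysteine dioxygenase before it, was at 0.15. Slc27a2, a second acyl-CoA synthetase able to activate bile acid precursors, was also at 0.15, and its sign turned with quantile normalization. All 5 genes of conjugation and taurine supply had ratios above 0 except under that scaling, where 4 did. None passed 2-fold, and the median was 0.27 over a list that includes Slc27a5 and Baat. Without these members the median over the other 3 genes was 0.15, beside 0.14 for the hepatocyte markers. It was 0.01 when ratios were centred on those markers.

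Electron donors of the hydroxylases did not share a direction. Por, the reductase that feeds the microsomal enzymes Cyp7a1 and Cyp8b1, had signals of 369.8 and 223.4 on its 2 probe sets on the high-fat array, against 831.4 and 547.2 on the low-fat array. Its log2 ratios were -1.05 and -1.18, the only gene of this list past 2-fold. Fdx1, the ferredoxin that feeds the mitochondrial Cyp27a1, was at 0.19, with a signal of 374.7 on the high-fat array and 355.9 on the low-fat array. A second Fdx1 probe set was below the floor on both arrays. Cyb5r3 was at -0.10, and Fdx2 at 0.01 with a sign that turned with the scaling. Of the 5 measured genes 3 were higher and 2 lower, and 1 was higher and 4 lower without centring.

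Most regulators of bile acid synthesis had ratios below 0, and none passed 2-fold. Of 20 listed genes 17 had a probe set and 15 were measured, of which 13 were lower and 2 higher under all 6 scalings. Beside this, 3004 of all 6012 measured genes had a ratio above 0. The 13 include Nr1h4, whose ratio of -0.0004 was close to 0. The median was -0.12 beside 0.00 for all 6012 measured genes. Nr0b2, the repressor SHP, had a signal of 122.1 on the high-fat array and 158.4 on the low-fat array. Its log2 ratio was -0.26, beside a robust SD of 0.221 in its signal bin. Nr1h4, the activator of Nr0b2, had a signal of 130.1 on the high-fat array and 141.1 on the low-fat array, at the median of all genes. Nr5a2, an activator of Cyp8b1 and Cyp7a1, had signals near the floor, 24.8 on the high-fat array and 28.8 on the low-fat array, and a ratio of -0.10. Hnf4a, a liver transcription factor that activates Cyp7a1 and Cyp8b1, was at 0.15, and its dimmer probe set was at -0.02 with a sign that turned with the scaling.

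The lowest ratios among the regulators belonged to Onecut1 (HNF6), a liver transcription factor, at -0.77 on the brighter and -0.69 on the dimmer probe set. The signal of Onecut1 was 121.7 on the high-fat array and 225.4 on the low-fat array. Mafg, a repressor that acts below FXR in the mouse, was at -0.66 with signals near the floor, and a second probe set was below it on both arrays. The xenobiotic and bile acid receptor gene Nr1i2 (PXR) was at -0.64, with a signal of 122.8 on the high-fat array and 206.8 on the low-fat array. Rxra, the partner of these receptors, was at -0.45, also near the floor. Fgfr4, the liver receptor for the gut hormone that represses Cyp7a1, was at -0.18. Its signals were also near the floor, 25.4 on the high-fat array and 31.2 on the low-fat array.

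Genes that move or detoxify bile acids went both ways. Of 9 measured transport genes 6 were higher and 3 lower, and 4 were higher and 5 lower without centring. The largest ratios were those of Abcb4, the phospholipid exporter, at 0.57, and of the organic anion uptake carrier Slco1b2, at 0.43 and 0.71 on 2 probe sets. Abcg5 was at 0.28, with low signals of 32.9 on the high-fat array and 29.4 on the low-fat array, and Slco1a1 was at 0.23. Slc10a1, the sodium-driven bile acid importer, had a signal of 1010.1 on the high-fat array and 1096.7 on the low-fat array, and Abcb11, the bile salt export pump, 338.2 on the high-fat array and 377.9 on the low-fat array. Of 6 measured detoxification genes 4 were higher and 2 lower, and Ugt2b1, a glucuronosyltransferase, was past 2-fold at -1.09. The sulfotransferase gene Sult2a6 was at 0.62, Cyp3a2 at 0.29 and Cyp3a23-3a1 at 0.24. The Sult2a, Cyp3a and Ugt2b genes have close relatives in sequence, so it is uncertain which member of a family their probe sets detect.

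**Figure D4:**
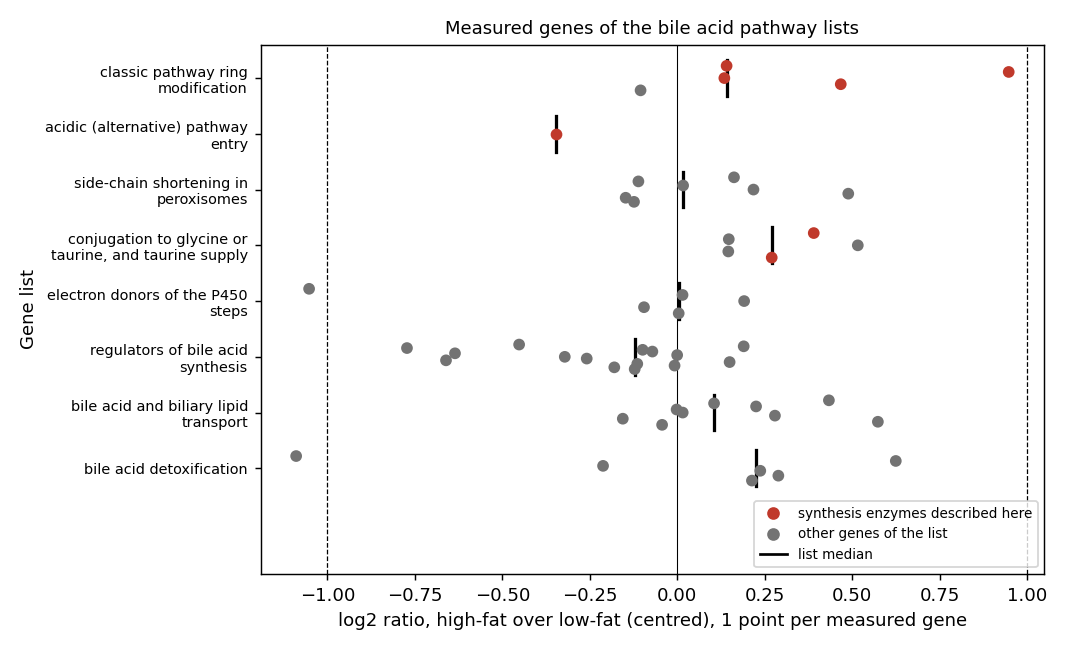
Centred log2 ratio, high-fat to low-fat array, for every measured gene of 8 bile acid pathway lists, with the synthesis enzymes described here in red, other genes in grey, the list medians as black bars and dashed lines at 2-fold. Por, at -1.05, and Ugt2b1, at -1.09, are the genes past 2-fold, and 13 of 15 regulators lie below 0, among them Nr1h4 at -0.0004.

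Markers of liver cell types were set beside these values, since in whole tissue fewer cells of a type and less RNA per cell cannot be told apart. The 14 measured hepatocyte markers had a summed signal of 48851 on the high-fat array and 48517 on the low-fat array, and 13 of them had a ratio above 0 (9 without centring), their median being 0.14, or 0.02 uncentred. The albumin gene Alb, the brightest of them, was at 0.14, and its sign turned with the scaling. Relative to that hepatocyte median, the Cyp8b1 ratio was 0.81 and the Cyp27a1 ratio -0.48. Of 7 cholangiocyte markers with a probe set 3 were measured, Anxa4, Epcam and Slc4a2, with a summed signal of 131.2 on the high-fat array and 162.7 on the low-fat array. The defining markers Krt19 and Krt7 were below the floor. Kupffer cell and macrophage markers numbered 5 higher and 4 lower (3 and 6 without centring), with a median log2 ratio of 0.01. Their summed signal was 1266.8 on the high-fat array and 1449.1 on the low-fat array. Of 11 stellate cell markers with a probe set 6 were measured, and 5 of these 6 were lower (6 of 6 without centring). The 6 had summed signals of 448.1 on the high-fat array and 570.6 on the low-fat array. Col1a2, Lrat and Rgs5 among them had high-fat signals of 13.2, 16 and 13.3, near the floor. Col1a2 was at -1.06, with a second measured probe set at 0.07. Of 5 measured endothelial markers 2 were higher and 3 lower (1 and 4 without centring), with a median log2 ratio of -0.03. Their signals summed to 346.1 on the high-fat array and 385.5 on the low-fat array. The summed signals of all cell types are not centred, so they carry the shift of -0.12 between the arrays. No lymphocyte marker of the 7 with a probe set was measured. The part of cell composition in the enzyme ratios was not tested.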

How the data were processed

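Total liver RNA had been hybridised to arrays with Affymetrix-style probe set names, 1 per diet. The deposited values are signal intensities on a linear scale, 1 per probe set and array, as read from the values. The authors' background correction, summarisation and scaling are not stated in the labels or the table. The number of arrays limits the precision. Groups came from the sample titles.

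Of 15923 probe sets, 57 controls and 4 with a 0 were left out. Gene names came from the platform annotation, with 12783 probe sets carrying 1 symbol, 312 several and 2771 unnamed here. Identifiers of 12748 were found in the reference gene table (assembly GRCr8), and 0 symbols changed. Probe sets counted as measured if their log2 intensity, averaged over the arrays with no pseudocount, was no lower than the average log2 floor. Ratios were centred on their median over measured probe sets, and the probe set with the highest mean signal stood for a gene. With no replicates there was no test, and 2-fold served as the call. Scaling alternatives were no centring, quantile normalization, loess (span 0.4), and centring on 18 hybridization controls or on hepatocyte markers. The others were floors at the 25th and 75th percentiles, no floor, low signals raised to the floor, 50 added before the log, a gene's median probe set, and exclusion of probe sets named as cross-hybridising.

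Every member was named, with up to 4 genes of each other list by the size of the ratio, and a fixed set of regulators and enzymes. Slc10a1, Abcb11, Cdo1 and the cell and zone markers named are further list members, given for context after their values were seen. The members and lists were chosen with earlier results of these data known. The steps were tested on simulated data. Python 3.11.15, numpy 2.4.6, pandas 2.3.3, statsmodels 0.14.6 and matplotlib 3.10.9 were used.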

Additional observations from a re-analysis of the deposited data

How the results depend on the processing

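No paired analysis was possible because each diet had 1 array. Of 70 values of member ratios under the alternatives, 69 kept their direction, and each of these moved by less than the robust SD of its signal bin. The exception was Cyp7a1, at -0.0024 when centred on hepatocyte markers, because those markers had a median of 0.14 against 0.13 for Cyp7a1. Many of the 70 values are not independent checks. Raising low signals to the floor could not move members this bright. Changes of floor and scalings by a single factor shift all member ratios by the same amount. The median over measured members ran from 0.13 to 0.28 under 12 alternatives. The count of members past 2-fold was 0 except without a floor, where it was 1, since Cyp7b1, with a signal of 0.2 on the high-fat array and 6.0 on the low-fat array, then entered. Signal over background limited Cyp7b1 most, while the 7 measured members were 12.3 to 110.3 times the floor on the high-fat array and 10.8 to 91.2 times on the low-fat array.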

Other observations

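Markers of the zones of the liver lobule were also read, because Cyp7a1 and Cyp8b1 are known to be expressed mainly by hepatocytes around the central vein. Of 4 measured pericentral genes 3 were higher and 1 lower on the high-fat array, with a median log2 ratio of 0.20, which was 0.06 when centred on hepatocyte markers. Glul, the glutamine synthetase of pericentral cells, was at 0.30 on its brightest probe set and at 0.06 and -0.12 on the other two. Cyp2e1 was at 0.16 and Cyp1a2 at -0.20. Of 9 measured periportal genes the ratio was above 0 in 3 and below it in 6, with a median of -0.01, and below 0 in 9 without centring. Hsd17b13, a lipid droplet protein gene, was the lowest at -0.84, with a signal of 255.1 on the high-fat array and 496.6 on the low-fat array, and the urea cycle genes Arg1 and Ass1 were at -0.0045 and -0.07. No difference between the zones was tested, as there was 1 array per diet.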
